A study of Mus musculus with 2 samples.

Results

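The respiratory chain genes described here are the 97 protein-coding RefSeq genes on mouse chromosomes 1 to 19 that encode subunits or assembly factors of the oxidative phosphorylation complexes. They were taken by symbol from the 20661 protein-coding genes on those chromosomes: Nduf genes, Sdha to Sdhd and the Sdhaf genes, Uqcr genes, Atp5 genes, and Cox genes numbered 4 to 8. Their chromatin was read from ATAC-seq peak lists of bone marrow-derived macrophages (BMDMs), grown out of mouse bone marrow with M-CSF at 20 ng/ml. ATAC-seq marks open chromatin, because the transposase Tn5 cuts and tags accessible DNA, and clusters of such cuts are reported as peaks. The untreated group was 1 library of wild-type cells at 0 h. The R848 group was 1 library, also wild-type, from cells exposed to R848 (resiquimod), an agonist of Toll-like receptor 7 in the mouse, at 100 ng/ml for 2 h. With no replicates, a peak listed in 1 library and not in the other is described as such, no p-value was computed, and none of the differences was tested.

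The respiratory chain sits in the inner mitochondrial membrane. Complexes I and II pass electrons from NADH and succinate to ubiquinone, complex III passes them on to cytochrome c, and complex IV (cytochrome c oxidase) gives them to oxygen. Complexes I, III and IV pump protons, and complex V, the ATP synthase, makes ATP from the resulting gradient. The genes studied here are the nuclear ones. Macrophages stimulated through Toll-like receptors are known to turn towards glycolysis and to use complex I and complex II in other ways than at rest, such as the oxidation of succinate.

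The promoter DNA at which the strongest member peaks stood is shown first. Each line gives the 150 bases directly before the RefSeq transcription start, 5′ to 3′ on the gene's own strand, from the RefSeq table for GRCm38.p6. Ndufb5, Atp5g1 and Cox7c had the highest R848 folds of all members, and Ndufaf5 had the highest among members listed in the R848 library alone. Cox8a and Cox8b are an isoform pair, with peaks at the first gene in both lists and none at the second. Capitals mark matches to the searched motifs, here CCAAT (the letters bound by NFY, on either strand) and GAGGAAG (PU.1).
Ndufb5, chr3:32736913-32737062, plus strand: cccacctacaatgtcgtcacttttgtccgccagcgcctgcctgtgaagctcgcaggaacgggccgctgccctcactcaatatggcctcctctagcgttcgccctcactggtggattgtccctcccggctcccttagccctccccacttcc
Atp5g1, chr11:96075632-96075781, minus strand: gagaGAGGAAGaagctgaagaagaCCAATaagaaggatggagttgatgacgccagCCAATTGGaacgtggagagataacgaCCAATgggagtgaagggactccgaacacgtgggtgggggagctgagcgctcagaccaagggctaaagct
Cox7c, chr13:86046796-86046945, minus strand: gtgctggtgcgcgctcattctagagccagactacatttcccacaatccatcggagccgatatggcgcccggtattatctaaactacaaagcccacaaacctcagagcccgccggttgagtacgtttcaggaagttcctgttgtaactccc
Ndufaf5, chr2:140170496-140170645, plus strand: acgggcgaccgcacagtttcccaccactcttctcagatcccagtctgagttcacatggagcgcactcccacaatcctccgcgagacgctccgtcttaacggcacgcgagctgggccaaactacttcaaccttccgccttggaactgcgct
Cox8a, chr19:7217617-7217766, minus strand: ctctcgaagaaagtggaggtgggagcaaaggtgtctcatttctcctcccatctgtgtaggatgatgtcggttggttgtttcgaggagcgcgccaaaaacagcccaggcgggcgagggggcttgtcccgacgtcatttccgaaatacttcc
Cox8b, chr7:140900447-140900596, minus strand: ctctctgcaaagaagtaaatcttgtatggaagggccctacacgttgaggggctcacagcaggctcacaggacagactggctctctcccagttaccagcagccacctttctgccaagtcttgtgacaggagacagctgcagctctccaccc

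All 150 printed bases lay inside the R848 peak at Ndufb5, Atp5g1, Cox7c, Ndufaf5 and Cox8a. They also lay inside the untreated peak at Ndufb5, Atp5g1, Cox7c and Cox8a. The Ndufb5 stretch held none of the searched motifs, and Atp5g1 held CCAAT in 3 places. Its run of 8 capitals reads as CCAAT on both strands. The whole 300-base promoter of Cox8a held 19 CpG dinucleotides, and that of Cox8b held 2.

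The binding letters of NRF1, a transcription factor known to act at many nuclear genes for mitochondrial proteins, are shown next. In percentage points, the looser form GCGCANGCG differed most of all motifs searched, at 29.1% of members beside 9.08% of all promoters. The windows show the strict form, GCGCATGCG on either strand, at 12.7% beside 2.46%. That difference was smaller than for the ETS letters CCGGAAG, at 26.6% beside 12.3%. Capitals mark the match, or both matches where the strands overlap. In the 7 members below it lay wholly before the start, and the windows read up to 40 bases on the gene's strand from the same RefSeq table.
Atp5g2, chr15:102671065-102671104, minus strand: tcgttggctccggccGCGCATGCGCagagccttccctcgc
Atp5k, chr5:108434425-108434464, minus strand: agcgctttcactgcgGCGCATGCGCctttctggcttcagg
Atp5l, chr9:44920960-44920992, minus strand: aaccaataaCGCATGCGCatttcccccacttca
Cox6a1, chr5:115349096-115349135, minus strand: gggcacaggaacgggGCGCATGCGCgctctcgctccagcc
Ndufa11, chr17:56717687-56717726, plus strand: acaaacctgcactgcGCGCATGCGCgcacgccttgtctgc
Ndufa8, chr2:36049339-36049362, minus strand: gcgcgtcgctggagaCGCATGCGC
Ndufaf4, chr4:24897955-24897994, plus strand: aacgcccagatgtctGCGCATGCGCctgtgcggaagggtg

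The match lay inside a called peak in both libraries at Atp5g2 and Ndufaf4, and inside the R848 peak at Ndufa8. At Ndufaf4 it was 128 bp from the untreated and 35 bp from the R848 summit. At Atp5g2 it was 35 bp from the untreated and 77 bp from the R848 summit, and at Ndufa8 it was 153 bp from the R848 summit. At Ndufa11 it was inside neither of the peaks assigned to the gene. Atp5k, Atp5l and Cox6a1 carried the same letters and had no peak at a gene end in either list, so the letters were found with and without a called peak.

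The lists differed as a whole before any gene was considered. The untreated list held 77060 peaks and the R848 list 37725. Of the peaks on chromosomes 1 to 19, 9.2% in the untreated list and 22.1% in the R848 list lay within 1 kb of either end of a protein-coding gene. Sequencing depth itself is not stated. The R848 library had 1.4 times the untreated background, 1.36 against 0.968 tags as recovered from the peak values, and this equals their relative depth only where tags were extended alike. The median peak rested on 7 and 8 tags. The median peak at a gene end, over all genes, rested on 8 and 12 tags. Gene-end peaks were present at 6 of 13 macrophage markers in the untreated list and 8 in the R848 list, with none at Mertk, Fcgr1, Cd14, Mrc1 and Msr1. They were present at 1 and 2 of 7 T and NK cell markers, 0 and 1 of 5 B cell markers, 3 and 3 of 6 neutrophil markers, and 0 of 6 stromal and endothelial markers in both lists. Of 10 genes known to respond to R848, 3 had one in the untreated list and 7 in the R848 list. Among these 10, Nfkbia was listed in both, Il12b and Il6 in the untreated library alone, and Il1b in neither. The part of depth, or of other cells, in the values below was not tested.

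A member was counted as having a peak where any base of a listed peak lay within 1 kb of either end of the gene. In the untreated list 45 of the 97 members had such a peak, or 46.4%, beside 32.6% of all genes. In the R848 list 71 members had one, or 73.2%, beside 41.3% of all genes. Respiratory chain genes were thus listed more often than genes at large in both libraries, and the R848 list held more of them although it was the shorter list.

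Peaks that overlapped between the lists were found at 43 members, or 44.3%, beside 26.3% of all genes. The R848 list alone had a peak at 28 members, or 28.9%, beside 13.7% of all genes. The untreated list alone had a peak at 2 members, or 2.06%, beside 5.1% of all genes. With both lists cut to equal length, the untreated-alone count was 0, beside 2.14% of all genes. No peak was found at 24 members, or 24.7%, beside 53.6% of all genes. The R848-alone class was also read against the genes that had an R848 peak at all. Among genes with an R848 peak, no untreated gene-end peak was listed at 39.4% of members and 33.3% of all genes. Among genes with an untreated peak, 4.44% of members and 15.6% of all genes had no R848 peak.

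**Figure D1:**
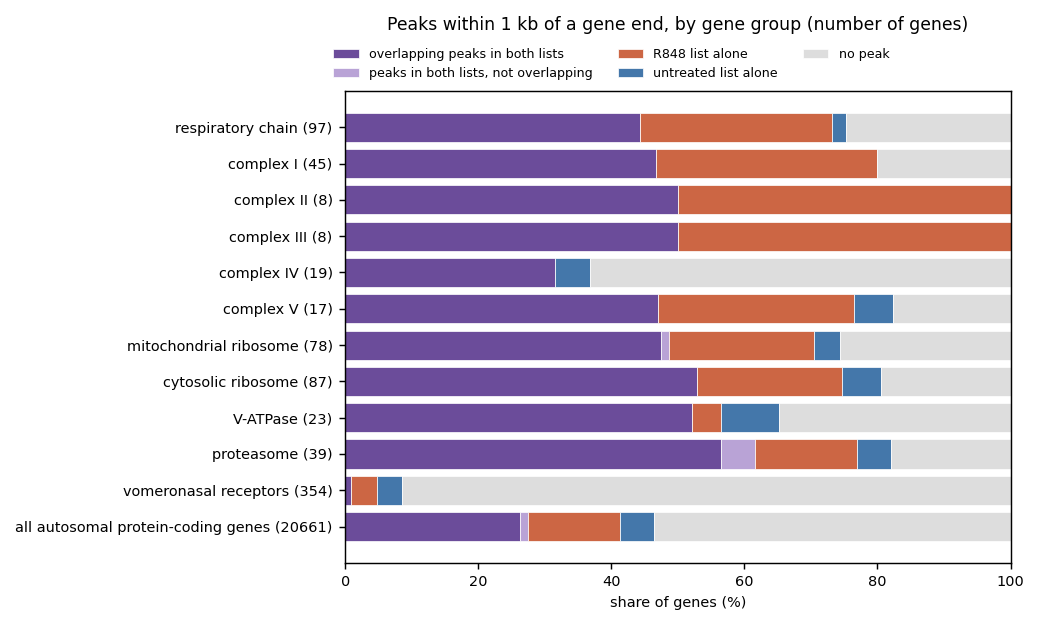
Share of genes (%, horizontal axis) with a peak within 1 kb of a gene end in both lists, in 1 list alone or in neither, for the 97 respiratory chain genes, each complex, 5 other gene families and all 20661 genes; numbers of genes are in parentheses. The R848-alone segment is present in complexes I, II, III and V and missing in complex IV, where 12 of 19 genes had no peak.

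The lists were also compared peak by peak. Of the 49 untreated peaks at member ends, 44 were overlapped by an R848 peak, or 89.8% (95% Wilson interval 78.2 to 95.6), beside 75.2% for gene-end peaks of all genes. Of the 75 R848 peaks at member ends, 44 were overlapped by an untreated peak, or 58.7% (47.4 to 69.1), beside 58.2%. The share of untreated peaks with an R848 counterpart was thus higher at the members, and the reverse share was close to that of all genes. These intervals cover counting error only.

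Peak strength is given by the authors' fold, which sets the tags piled up at a summit against that library's own background, and is used only to rank peaks within a list. The strongest gene-end peak per member had a median fold of 4.57 in the untreated list, and so did all genes with a peak. In the R848 list the median was 5.09, beside 5.28. The members were therefore in the middle of the genes with a peak, at a median percentile of 52.0 in the untreated and 46.9 in the R848 list. Folds ran from 3.03 to 11.1 in the untreated and from 2.71 to 14.2 in the R848 list. At the 43 members with overlapping peaks, the strongest peak had a median of 8 untreated and 14 R848 tags. More tags were recovered from the R848 library at 38 of the 43, or 88.4%, beside 91.7% of all genes with overlapping peaks. The tags are not scaled for depth, and the members' share was near that of all genes.

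**Figure D2:**
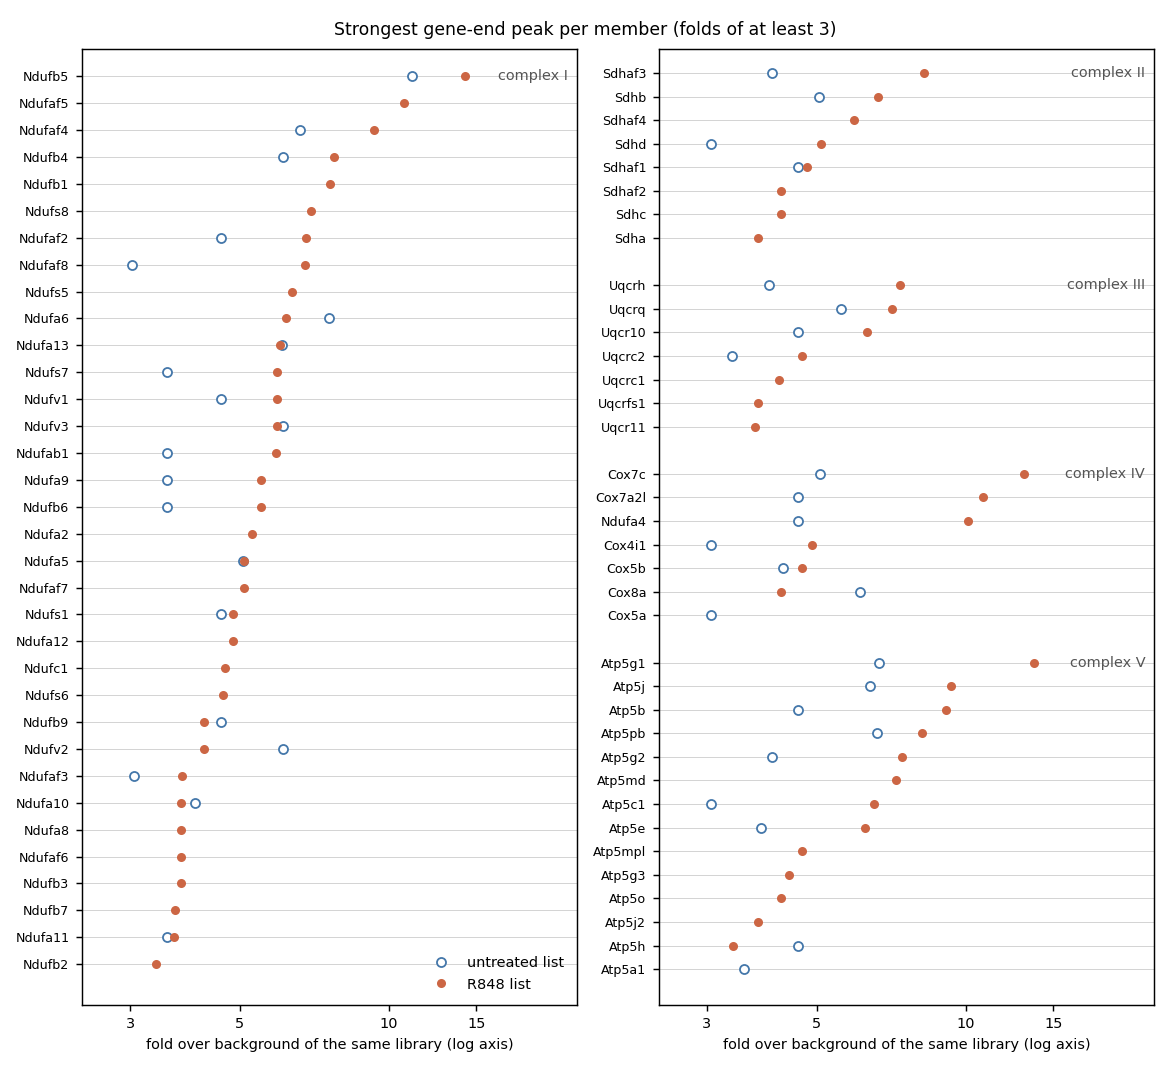
Fold of the strongest gene-end peak over the background of its own library (horizontal axis, log scale) for 70 of the 73 members with a peak, by complex (those with a fold under 3 are not drawn); open circles are the untreated list and filled circles the R848 list. Folds rank genes within a list and are not a measure of change between lists; Ndufb5 stood highest in both lists, at 11.1 and 14.2.

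Complex I, the NADH dehydrogenase, is the largest of the complexes and supplied 45 members. Of these, 21 had an untreated peak and 36 an R848 peak. Each of the 21 also had an overlapping R848 peak, 15 genes were listed in the R848 library alone, and 9 had no peak. As shares these were 46.7%, 33.3% and 20.0%, beside 26.3%, 13.7% and 53.6% of all genes. The same all-gene shares stand beside the counts by role below. Of the 7 core subunits, which carry the flavin and the iron-sulfur clusters, 5 had overlapping peaks in both lists. Ndufs1, Ndufs7, Ndufv1 and Ndufv2 were among these. Ndufv2 had the highest untreated fold among them, 6.10 from 11 tags, and stood at 4.24 from 9 tags in the R848 list. Ndufs8 was listed in the R848 library alone, with a fold of 6.96 from 21 tags, and Ndufs3 had no peak.

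The 30 supernumerary subunits surround the core. Of them, 12 had overlapping peaks in both lists, 11 were listed in the R848 library alone and 7 had none. Ndufb5 led all members in both lists. Its fold was 11.1 in the untreated list, from 21 tags (exact 95% Poisson interval 13.0 to 32.1). It was 14.2 in the R848 list, from 46 tags (33.7 to 61.4), in a peak at chr3:32736559-32737273 that covers the start printed above. Among all genes with a gene-end peak, it ranked 42 in the untreated and 49 in the R848 list. Its start lies 308 bp from that of Mrpl47, a mitochondrial ribosomal protein gene on the opposite strand, and a peak between them cannot be given to either gene. Ndufa6 ranked next to it among untreated peaks, with a fold of 7.55 from 15 tags, and stood at 6.20 from 15 tags in the R848 list. Ndufv3, an accessory subunit of the NADH-binding part, had 6.10 and 5.93.

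Among the supernumerary subunits listed in the R848 library alone, Ndufb1 had a fold of 7.60 from 18 tags and Ndufs5 had 6.36 from 14 tags. Ndufa2 followed with 5.28, Ndufa12 with 4.84, Ndufc1 with 4.66 and Ndufs6 with 4.62. The lowest was Ndufb10, at 2.71 from 6 tags. The R848-alone members as a group rested on a median of 9 tags, fewer than the 14 of the members with peaks in both lists. The 7 without a peak were Ndufa3, Ndufa7, Ndufb4b, Ndufb4c, Ndufb8, Ndufc2 and Ndufs4. Ndufb4b and Ndufb4c are near copies of Ndufb4, which had overlapping peaks with folds of 6.10 and 7.75, and how reads were shared among copies was not given in the sources used here.

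Assembly factors build the complexes without being part of them. Among the 8 of complex I, 7 had an R848 peak and 4 of these also an untreated one, and Ndufaf1 had none. Ndufaf5, an assembly factor that modifies a core subunit, was the strongest member in the R848 list alone. Its fold was 10.7 from 30 tags (20.2 to 42.8), in a peak at chr2:140170397-140170998, and no untreated peak was listed within 1 kb. Its start is 88 bp from that of Esf1 on the opposite strand, and both genes share the peak. Ndufaf4 had overlapping peaks with folds of 6.60 from 12 tags and 9.31 from 26 tags. Ndufaf7 was listed in the R848 library alone, at 5.09 from 11 tags.

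Complex II, succinate dehydrogenase, is also an enzyme of the TCA cycle, and all 8 of its members had an R848 peak. Sdha, the flavoprotein that binds succinate, was listed in the R848 library alone, with a fold of 3.81 from 8 tags. Sdhb, the iron-sulfur subunit, had 5.05 from 9 tags in the untreated and 6.64 from 18 tags in the R848 list. The membrane anchors were split in the same way. Sdhc was listed in the R848 library alone, at 4.24 from 9 tags. Sdhd had 3.05 from 5 tags in the untreated and 5.09 from 11 tags in the R848 list.

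Of the complex II assembly factors, Sdhaf1 had 4.57 in the untreated and 4.78 in the R848 list. Sdhaf3 had 4.06 from 7 tags and 8.22 from 23 tags. Sdhaf2 and Sdhaf4 were listed in the R848 library alone, at 4.24 and 5.93. Complex II was thus divided evenly, with 4 genes in both lists and 4 in the R848 list alone, and the latter held at most 13 tags. Each class was 50.0% of the complex, beside 26.3% and 13.7% of all genes.

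Complex III, the cytochrome c reductase, showed the same division: all 8 members had an R848 peak and 4 of them also an untreated one. Beside these stood 41.3% of all genes with an R848 peak and 32.6% with an untreated one. Uqcrh, Uqcrq, Uqcr10 and Uqcrc2 had peaks in both lists, with untreated folds from 3.37 to 5.59 and R848 folds from 4.66 to 7.34. Uqcrc1, a core protein, Uqcrfs1, the Rieske iron-sulfur protein, and the small subunits Uqcr11 and Uqcrb were listed in the R848 library alone. Their folds ran from 2.97 at Uqcrb to 4.20 at Uqcrc1, below those of the other 4 members. Cyc1, the cytochrome c1 gene of the same complex, lies outside the symbol rule and is not among these 8. It was listed in the untreated library alone, at 3.05 from 5 tags.

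Complex IV differed from the other complexes in its counts. Of its 19 members 7 had an untreated and 6 an R848 peak, none was listed in the R848 library alone, and 12 had no peak at a gene end. The R848-alone share was 0.0%, beside 13.7% of all genes, and 63.2% had no peak, beside 53.6%. Complex IV subunits come as broadly used and as tissue-restricted isoforms, and the counts differed between the 2 kinds. None of the 8 restricted isoforms (Cox4i2, Cox6a2, Cox6b2, Cox7a1, Cox7b2, Cox8b, Cox8c and Ndufa4l2), several of which are known from heart and skeletal muscle or testis, had a peak in either list. The RefSeq starts, given for 4 of the 8, had none either. Of the 11 broadly used ones, 6 had overlapping peaks in both lists.

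Taken pair by pair, Cox4i1 had folds of 3.05 and 4.88 in the untreated and R848 lists, and Cox4i2 had no peak. Cox8a had 6.10 from 11 tags and 4.24 from 9 tags, and Cox8b and Cox8c had none. Ndufa4, now counted as a complex IV subunit, had 4.57 from 8 tags and 10.1 from 26 tags, and Ndufa4l2 had none. Cox7a2l, a factor of supercomplexes, had 4.57 from 8 tags and 10.8 from 28 tags, and Cox7a1 had none. In each of these 4 comparisons the broadly used gene had peaks in both lists and the restricted one in neither, but Cox7a2, the other broadly used gene of its family, had none at a gene end. Cox7b2 had no peak, and neither did Cox7b, which lies on X and is not among the 97. Cox5b, which has no restricted partner among the members, had folds of 4.27 and 4.66. Cox7c, also without a restricted partner, had the highest R848 fold of the complex, 13.1 from 38 tags (26.9 to 52.2). Its untreated fold was 5.08 from 9 tags, below the 6.10 of Cox8a.

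In the Cox6 families neither isoform had a peak: Cox6a1 and Cox6a2, Cox6b1 and Cox6b2, and Cox6c were all without one. Cox7a2 also had no peak at a gene end, and Cox5a had 1 in the untreated list alone, at 3.05 from 5 tags. For these genes the choice of gene end mattered. The table's gene ends include the outermost transcripts, and the RefSeq start of Cox7a2 lies 4612 bp inside its nearer gene end. Around that start both lists held a peak, with folds of 4.57 from 8 tags in the untreated and 9.75 from 22 tags in the R848 list. Around the start of Cox5a, 3904 bp inside, the folds were 5.08 and 5.16. Counted at starts, both genes therefore had peaks in both lists.

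Complex V had 17 members, of which 9 had an untreated and 13 an R848 peak. As shares these were 52.9% and 76.5%, beside 32.6% and 41.3% of all genes. In the catalytic F1 head, Atp5b (the beta subunit, which makes ATP) had folds of 4.57 from 8 tags and 9.09 from 25 tags. Atp5c1 and Atp5e had peaks in both lists as well. Atp5a1, the alpha subunit, was listed in the untreated library alone, at 3.56 from 6 tags, below the members' untreated median of 4.57. Atp5d had no peak at a gene end, but its RefSeq start lies 3513 bp inside the nearer end, and within 1 kb of that start the folds were 3.05 and 5.11.

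The c-ring, which turns as protons pass, is encoded by 3 genes for the same mature protein. Atp5g1 had the second highest R848 fold of all members, 13.7 from 43 tags (31.1 to 57.9), and 6.67 from 13 tags (6.92 to 22.2) in the untreated list. Atp5g2 had 4.06 from 7 tags and 7.44 from 17 tags. Atp5g3 was listed in the R848 library alone, at 4.40 from 10 tags. Of these 3 genes, Atp5g1 thus ranked highest in both lists.

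Of the 9 stalk and membrane subunits, 3 had overlapping peaks in both lists, 4 were listed in the R848 library alone, and Atp5k and Atp5l had none. Atp5j, coupling factor 6, had folds of 6.41 from 14 tags and 9.34 from 30 tags, but neither peak reached its gene end. The untreated summit lay 594 bp and the R848 summit 640 bp downstream of its RefSeq start. Both peaks are shared with Gabpa, the gene of the ETS factor GABP alpha, which is known to act at respiratory chain promoters. An end of Gabpa lies 966 bp from that of Atp5j, and the peaks cannot be given to either gene. Atp5pb had 6.60 from 12 tags in the untreated and 8.14 from 20 tags in the R848 list. Atp5md, a small membrane subunit, was the strongest of these 4 R848-alone subunits, at 7.21 from 16 tags, and Atp5mpl had 4.66 from 10 tags.

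Members lay close to other genes more often than genes at large. An end of another protein-coding gene was within 1 kb of 53 of the 97 members, or 54.6%, beside 25.6% of all genes. In the untreated list a gene-end peak was shared with another gene at 24 of 45 members (53.3%, beside 30.1% of all genes with one). In the R848 list this held for 36 of 71 members (50.7%, beside 29.9%), so about as many members shared their peak as had it alone. Of the members named above, Ndufb1 shared its peak with Cpsf2, Ndufs8 with Aldh3b1, Atp5md with Pdcd11, Ndufa4 with Phf14 and Atp5pb with Wdr77, besides the pairs already given. An R848 peak was found at 42 of the 53 members with such a neighbour (79.2%, beside 61.8% of all genes with a neighbour). It was found at 29 of the 44 members without (65.9%, beside 34.2%). The higher share of members with an R848 peak was present with and without a neighbouring gene. An untreated peak was found at 52.8% of members with a neighbour, near the 49.5% of all such genes, and at 38.6% of members without, beside 26.8%.

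RefSeq starts were given for 79 members. Of these, 22 (27.8%) had a start on the opposite strand within 1 kb upstream, beside 7.79% of 16456 genes. Among these divergent members 20 (90.9%) had an R848 peak, beside 83.1% of all divergent genes, and 13 (59.1%) an untreated one, beside 68.5%. Ndufs3 and Ndufa7 were the exceptions, with starts 19 bp from that of Kbtbd4 and 10 bp from that of Rps28 and no peak in either list. Repeated at starts alone, the 79 members gave 39 with overlapping peaks in both lists, 23 in the R848 list alone, none in the untreated list alone and 17 with no peak. As shares these were 49.4%, 29.1%, 0.0% and 21.5%, beside 28.1%, 13.9%, 3.9% and 53.3% of the 16456 genes. The same 79 at gene ends gave 37, 23, 1 and 18. The classes of 5 genes changed: those of Cox5a, Cox7a2 and Atp5d as given above, Ndufb6 from both lists to the R848 list alone, and Atp5o from the R848 list alone to none.

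The summits sat near the start, slightly upstream. In the untreated list the median summit was 84 bp upstream (median position -84 bp), and 31 of 42 summits lay within 250 bp of the start. In the R848 list the median position was -55 bp, and 52 of 63 lay within 250 bp. The positions in the lists overlapped widely.

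**Figure D3:**
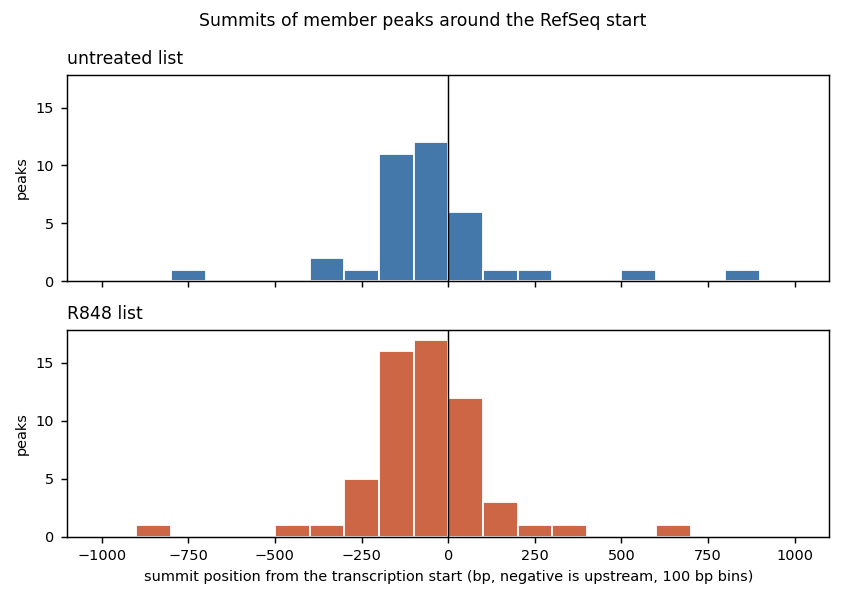
Number of member peaks (vertical axis) by position of the summit from the RefSeq start (horizontal axis, bp, 100 bp bins, negative is upstream), for the untreated list (top) and the R848 list (bottom). Most summits fall in the bins just upstream of the start; 5 untreated and 4 R848 summits farther than 1 kb from the start are not drawn.

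The distance rule left few members near its edge. The R848 peak of Atp5o began 961 bp from the gene end and that of Atp5g3 821 bp, both inside the limit. The nearest untreated peak to Ndufb10 was 1245 bp away and just outside it.

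Promoters of 79 members were found in the RefSeq table, each with 250 bases before the start and 50 after. The 18 members not matched included Ndufaf6, Ndufs1, Ndufa2, Ndufb4c, Ndufb9, Sdhc, Uqcrb, Uqcrc2, Uqcrq, Cox4i1, Cox6c, Cox4i2, Cox6a2, Cox8c, Ndufa4l2, Atp5a1 and Atp5mpl. Exact letters were searched on both strands, and a match is a description of the sequence, not of binding. Since promoters with a peak are richer in GC, members with a peak were also set beside all genes with a peak. The NRF1 letters GCGCANGCG were found in 23 of the 79 member promoters, or 29.1%, beside 9.08% of all promoters. Among promoters with a gene-end peak the shares were 32.8% of 61 members and 14.7% of all genes. The strict form GCGCATGCG was found in 10 members, or 12.7%, beside 2.46% of all promoters.

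The other factors known from nuclear mitochondrial genes gave smaller differences in percentage points than GCGCANGCG, though not always as ratios. The ETS letters CCGGAAG, read by GABP among others, were found in 26.6% of members and 12.3% of all promoters, and in 24.6% and 19.3% of those with a peak. The YY1 letters AAGATGGCG were found in 8.86% and 1.92%, and the ERR letters AAGGTCA in 10.1% and 4.0%. Among promoters with a peak, YY1 letters were in 9.84% of members and 3.2% of all genes, and ERR letters in 9.84% and 2.91%. The SP letters GGGCGG were found in 48.1% and 47.3%, and among promoters with a peak they were rarer in members, at 49.2% beside 63.5%. CCAAT was found in 41.8% and 39.1%, and the CREB and ATF letters TGACGTCA in 5.06% and 2.4%.

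The letters of factors known from the macrophage response are given next. The NF-kB letters GGGNNTTCC were found in 5.06% of members and 6.35% of all promoters, and the AP-1 letters TGANTCA in 7.59% and 7.12%. Among promoters with a gene-end peak, NF-kB letters were in 6.56% of members and 7.74% of all genes, AP-1 letters in 9.84% and 5.07%, and PU.1 letters in 6.56% and 12.9%. The PU.1 letters GAGGAAG, which can overlap an ETS site, were found in 6.33% and 13.1%. With 79 promoters, these shares rest on 4, 6 and 5 members.

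**Figure D4:**
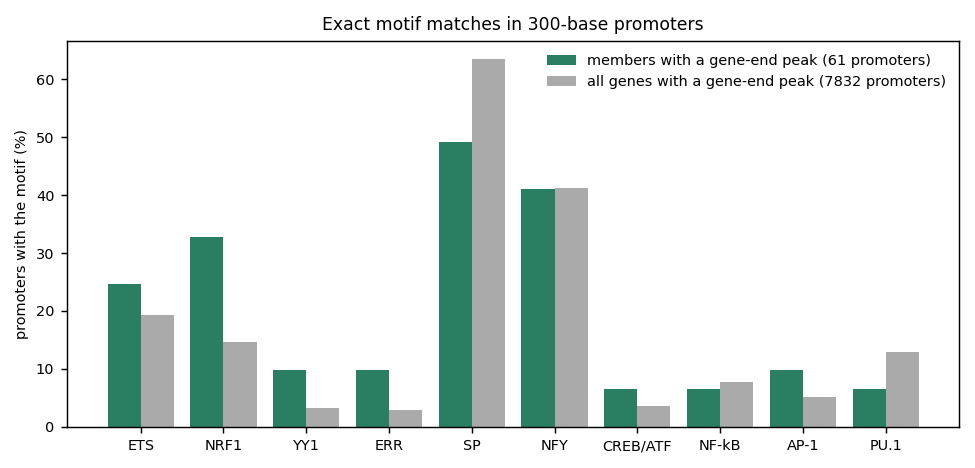
Share of 300-base promoters with at least 1 exact match (vertical axis, %) for each motif (horizontal axis), in 61 members with a gene-end peak and in all 7832 genes with one. In percentage points the NRF1 bars differ most in favour of the members, 32.8% beside 14.7%, and the SP bars the other way, 49.2% beside 63.5%.

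Base composition differed between members with and without a peak. Promoters of the 61 members with a gene-end peak had a median GC content of 59.7% and between 12 and 44 CpG dinucleotides. Those of the 18 members without one had a median GC of 52.5% and between 2 and 32 CpG. The median CpG number was 22 in members with peaks in both lists, 21 in those with an R848 peak alone and 13 in those with none. Without the 4 tissue-restricted isoforms, the 14 other members with none had a median of 17 (range 5 to 32). The group with none also includes Cox7a2 and Atp5d, which had peaks in both lists around their RefSeq starts. Members in both lists and in the R848 list alone thus had a similar CpG content, with ranges of 13 to 43 and 12 to 44. Over all genes the medians were 21 with a peak and 6 without.

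**Figure D5:**
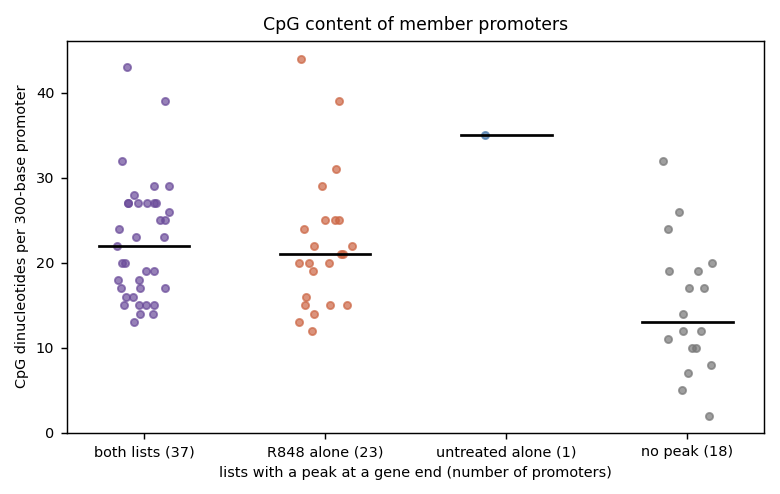
CpG dinucleotides per 300-base promoter (vertical axis) for the 79 members with a promoter entry, by the lists that held a gene-end peak (horizontal axis, number of promoters in parentheses); points are genes and lines are medians. Medians are 22 for both lists, 21 for the R848 list alone and 13 for no peak, with wide overlap between the groups. The no-peak median is 17 without the 4 tissue-restricted isoforms.

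Other genes of the pathway were set beside the members. Of 36 electron carriers and assembly factors outside the symbol rule, 20 had overlapping peaks in both lists, 10 were listed in the R848 library alone, 2 in the untreated library alone and 4 in neither. As shares these were 55.6%, 27.8%, 5.56% and 11.1%, beside 26.3%, 13.7%, 5.1% and 53.6% of all genes. The R848-alone genes were Cox10, Cox14, Cox16, Cox17, Lyrm7, Uqcc2, Uqcc3, Nubpl, Atpaf1 and Pet117, with Lyrm7 highest at 6.05 from 14 tags. The untreated-alone genes were Cyc1, which encodes cytochrome c1, at 3.05 and Atpif1, the ATP synthase inhibitor, at 4.06. Cycs, the gene of cytochrome c, had folds of 6.10 from 11 tags and 10.9 from 31 tags. Of 15 TCA cycle genes, 9 had overlapping peaks in both lists, Dlst, Dlat, Suclg1 and Suclg2 were listed in the R848 library alone, and Idh2 and Idh3b had none. As shares these were 60.0%, 26.7% and 13.3%, beside 26.3%, 13.7% and 53.6% of all genes.

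Among 16 regulators of mitochondrial gene expression, 9 had overlapping peaks in both lists, or 56.2%, beside 26.3% of all genes. None was listed in the untreated library alone, beside 5.1% of all genes. Gabpa was 1 of the 9 with overlapping peaks, and its peaks are those shared with Atp5j, which cannot be given to either gene. Nrf1 (3.39), Ppargc1b (3.65) and Ppard (5.00) were listed in the R848 library alone, with these R848 folds. As a share this was 18.8%, beside 13.7% of all genes. Gabpb1, Ppargc1a, Hif1a and Ppara had no gene-end peak, a class that held 53.6% of all genes. Tfb2m, a mitochondrial transcription factor, had 7.11 from 13 tags and 11.4 from 34 tags.

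Other families of widely used genes were also listed more often than genes at large. An R848 gene-end peak was found at 70.5% of 78 mitochondrial ribosome genes, 74.7% of 87 cytosolic ribosome genes, 76.9% of 39 proteasome genes and 56.5% of 23 V-ATPase genes, beside 73.2% of the members. An untreated peak was found at 52.6%, 58.6%, 66.7% and 60.9% of them, beside 46.4% of the members. The share listed in the R848 library alone was 21.8% in both ribosome families, 15.4% in the proteasome and 4.35% in the V-ATPase, beside 28.9% of the members. Vomeronasal receptors, which are expressed in sensory neurons of the nose, had an R848 peak at 4.8% of 354 genes and an untreated one at 4.52%. The respiratory chain had the lowest untreated share and the highest R848-alone share of these 5 families, and whether they differ was not tested. Its members include the 8 tissue-restricted isoforms, none of which had a peak. The 89 other members stood at 50.6% untreated, 79.8% R848 and 31.5% R848 alone.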

How the data were processed

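ATAC-seq peak lists of 2 libraries, 1 per group, were used. Per the submitters' processing notes, bcl2fastq 2.19, Bowtie2 2.2.6 and MACS2 2.2.7.1 were used on mm10. Settings, read filters, duplicates and any shift of insertion sites are not given in the sources used here. For each peak the authors deposited the fold over background (a ratio), the −log10 p and −log10 q of the summit within its library, and a score of about 10 times −log10 p, which was not used.

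Genes were taken from the RefSeq table of the same build, GRCm38.p6, by symbol, and peaks within 1 kb of either gene end were assigned, as were overlaps of at least 1 bp. Tags were solved from the fold, (tags + 1)/(background + 1), and the Poisson tail. A solution within 0.1% of the deposited −log10 p was found for 99.9% of untreated and 99.8% of R848 peaks. The precision of a single peak is low, at a median of 7 (untreated) and 8 (R848) tags. Intervals are 95% Wilson or exact Poisson intervals and cover counting error only. Of the listed peaks, 36.5% untreated and 48.2% R848 had a q above 0.05.

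Every member was counted, some results for single genes are not reported here, and named with values were the 8 highest folds in each list with ties, up to 12 members listed in 1 library alone, all Sdh genes and the Cox, Ndufa4 and Atp5g isoforms. Examples outside this rule (neighbouring genes, Ndufb10, complex III, Cox5b, Atp5b, Cycs, Tfb2m and the printed sequences) were chosen after their values were seen. The members and all lists were chosen with earlier results of these data known. Alternatives were the window, q thresholds, equal list lengths, the summit, starts alone, isolated members, members on X and the overlap rule. The scripts were tested on simulated data. Computation was in Python 3.11.15 (scipy 1.17.1, pandas 2.3.3, numpy 2.4.6) and plots in matplotlib 3.10.9.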

Additional observations from a re-analysis of the deposited data

How the results depend on the processing

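Of 76 recomputed values, 56 stayed within the spread used for them and 20 moved. With peaks of −log10 q of at least 5, members with a peak fell from 45 to 11 in the untreated and from 71 to 34 in the R848 list, with 9 in both lists and 61 with none. All genes then stood at 8.91% untreated and 21.2% R848. The members' untreated share of 11.3% was thus near that of genes at large, and their R848 share was 35.1%. Overlapping peaks in both lists were then at 9.28% of members, near the 8.17% of all genes. No peak was listed at 62.9% of members, beside 78.1% of all genes. The R848-alone count was then 25, or 25.8%, beside 13.0% of all genes. The share of member R848 peaks overlapped by an untreated peak was 25%, and the median folds were 6.41 and 7.03. Among the 39 members with no other gene end within 2 kb, 15 had an untreated peak (38.5%, beside 25.9% of such genes). An R848 peak was at 25 (64.1%, beside 33.0%), and overlapping peaks in both lists at 14 (35.9%, beside 19.5%). The untreated list alone had 1 (2.56%, beside 5.38%) and the R848 list alone 11 (28.2%, beside 12.5%). The other 13 had none (33.3%, beside 61.6%). A reciprocal overlap of 50% left 27 members with shared peaks, and shares of 57.1% of untreated and 37.3% of R848 peaks. That rule was not applied to all genes, so these values have no all-gene share to be read against. With lists of equal length the untreated-alone count was 0 (2.14% of all genes), the R848-alone count 39 (40.2%, beside 19.3%), and the shares 97.1% and 44%. At transcription starts the untreated-alone count was also 0 (3.9% of all genes). Windows of 500 bp and 2 kb, a q of 0.05, the summit rule and the 3 members on X, none with a peak, changed no count by more than 1.5 times; the untreated-alone count was 3 in place of 2 at 500 bp and at that q.

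No paired analysis was possible because each group is 1 library. Without read totals, a peak missing from a list was not detected at that depth and is not shown to be absent, and no difference between the lists can be told apart from a difference between the libraries.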
